A study of Mus musculus with 4 samples.

Results

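The genes described here are 7 genes of coagulation and fibrinolysis that the vessel wall is known for: Vwf, F8, Thbd, Procr, Plat, Tfpi and F3. They were taken by name from the deposited matrix of UMI counts (UMIs are barcodes that let copies of the same RNA molecule be counted once), and all 7 were present among its 20076 gene symbols. The matrix comes from single-cell RNA sequencing of whole lungs of 4 mice, in which loss of the transcription factor ERG from endothelial cells (ECs) was studied. The 2 mice labelled WT carried ERG fl/fl alleles without Cre. The 2 mice labelled ERG CKO carried CDH5-CreER(T):ERG fl/fl, where the Cre is driven by the promoter of the EC gene Cdh5 and acts only once tamoxifen is given. All 4 mice received 5 daily injections of 0.5 mg tamoxifen, and lungs were taken 90 days later. The mice were on a C57/BL6 background and of mixed sex. No age is stated for the mice of these libraries, while the study calls its WT and ERG CKO mice of other experiments young. Each library held the cells of 1 mouse, so the mouse was the replicate.

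These genes act at different steps of clotting on the vessel wall. Von Willebrand factor (Vwf) tethers platelets to damaged vessels and carries factor VIII (F8) in blood, and factor VIII speeds the activation of factor X. Thrombomodulin (Thbd) and the endothelial protein C receptor (Procr) turn thrombin towards activation of protein C, an anticoagulant, and tissue factor pathway inhibitor (Tfpi) blocks the start of coagulation by tissue factor (F3). Tissue-type plasminogen activator (Plat) starts the breakdown of fibrin. The lung capillary bed has 2 kinds of ECs, general capillary cells (gCap) and aerocytes (aCap), the latter lying along the alveolar surface.

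The 4 libraries held 1852 to 3097 cells and 11263911 to 18646776 UMIs, and 7 barcodes occurred in more than 1 library. The cells were clustered again here and named from marker genes, which gave 2752 ECs. Of these 1673 were gCap, 451 aCap, 172 vein and 64 artery, and 54 formed a cluster named lymphatic. The other ECs lay in clusters of 131, 127, 56 and 24 cells that got no subtype name. The reasons were leading artery and fibroblast genes, low depth, platelet genes and B cell genes, in this order. They stayed in all comparisons of ECs as a whole. All 10 EC markers had UMIs in the ECs of every library, and together they reached 16527 to 21078 CPM there against 145 to 293 CPM in T cells. CPM is the UMI count of a gene scaled to 1000000 UMIs of all genes in the same cells. The targeted gene Erg lay in ECs at 85.7 and 92.0 CPM for the WT mice, against 106 and 83.8 CPM for those labelled ERG CKO, with a log2 fold change of 0.07 (SE 0.15, adjusted p = 0.892, edgeR). The matrix holds a single count per gene, so the floxed part of Erg cannot be read apart and this count tests neither the deletion nor the labels. All directions given are therefore between libraries as labelled. Of the WT ECs 9.16% and 11.5% held UMIs of the platelet markers Pf4, Ppbp, Gp9 or Itga2b, against 32.2% and 16.5% of those labelled ERG CKO, so that ERG CKO replicate 1 stood apart from the other libraries. Where results in ECs are given without such cells, this is said.

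The members were first placed in the lung by their level in each cell class, as a description without a test. Vwf was highest in large vessels. In veins it lay at 3276 and 3464 CPM in WT and at 2226 and 2170 CPM in the libraries labelled ERG CKO, and in arteries at 2545 and 2043 against 1154 and 989.5 CPM. The next classes were platelets, with a mean of 477 CPM over the 4 libraries, and gCap with 223 CPM. The ranges of vein and artery overlapped, whereas artery lay above platelets in every library. In aCap Vwf was at 11.9 to 54.3 CPM, about the range of alveolar macrophages (23.0 to 49.5 CPM). The 172 vein cells held 43.3% of the 8305 Vwf UMIs of the series.

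F8 followed another order. The cluster named lymphatic had the highest mean over the 4 libraries, 436 CPM, followed by vein with 35.4 CPM and gCap with 23.1 CPM. The ranges of neighbouring classes overlapped. These means pool both groups, which differed in F8, and the order in WT alone is another. In WT gCap was at 2.73 and 2.03 CPM, below artery, which ranged from 10.1 to 34.7 CPM over the 4 libraries. In the lymphatic cluster F8 was at 276 and 39.2 CPM in WT and at 798 and 630 CPM in ERG CKO, from 9, 1, 101 and 41 UMIs. The name holds for the WT cells but less for the others, since the 7 lymphatic markers summed to 41881 and 36610 CPM in WT and to 2630 and 998 CPM in ERG CKO. Of its 54 cells, 25 carried UMIs of at least 3 lymphatic markers (7, 6, 8 and 4 over the libraries), and in these F8 was at 345 and 57.0 CPM in WT and at 539.5 and 792 CPM in ERG CKO. F8 was kept out of the genes used for clustering. ECs together held 84.1% of the 617 F8 UMIs.

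Among the anticoagulant members, Thbd was spread over the whole endothelium. Its mean level was 1836 CPM in vein, 1620 CPM in aCap and 1616 CPM in gCap, with overlapping ranges, and gCap lay above the lymphatic cluster (842 CPM) in every library. In arteries Thbd was at 533 and 463 CPM in WT and 1051 and 686 CPM in ERG CKO, the lowest levels among the EC subtypes of WT. Procr, by contrast, had its highest mean in vein, at 34.1, 86.7, 104 and 40.8 CPM over the 4 libraries. The 172 vein cells held 29.6% of its 358 UMIs. The range overlapped that of interstitial macrophages, the next class, where Procr had a mean of 28.6 CPM (0 to 88.9 CPM). Alveolar macrophages were the largest source of Procr outside ECs, with 19.0% of the UMIs at 4.55 to 9.04 CPM. Tfpi was nearly even among fibroblasts (77.8 CPM), aCap (76.7 CPM), the lymphatic cluster (74.1 CPM), mural (69.5 CPM), vein (66.9 CPM) and gCap (58.1 CPM), and all of these neighbours overlapped.

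By level Plat was foremost an arterial gene, while gCap held 39.9% of its 5446 UMIs, aCap 17.5% and artery 7.91%. In arteries it was detected at 848 and 886 CPM in WT and at 1242 and 946 CPM in ERG CKO, above mural cells (346 CPM on average) in every library. Vein had the lowest level of the tested EC subtypes in WT, at 8.52 and 17.9 CPM. F3 was almost absent from endothelium, with 10 UMIs in 2752 ECs. Epithelium held 59.8% of the 403 F3 UMIs at a mean of 81.8 CPM, fibroblasts 21.8% at 37.7 CPM and neutrophils 9.93% at 37.2 CPM. Of the 241 F3 UMIs in epithelium, 1 cell held 73. Tissue factor is known to sit outside the vessel, on cells that blood meets only after injury, and the neutrophil level lay above that of artery, the next class, in every library.

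**Figure D1:**
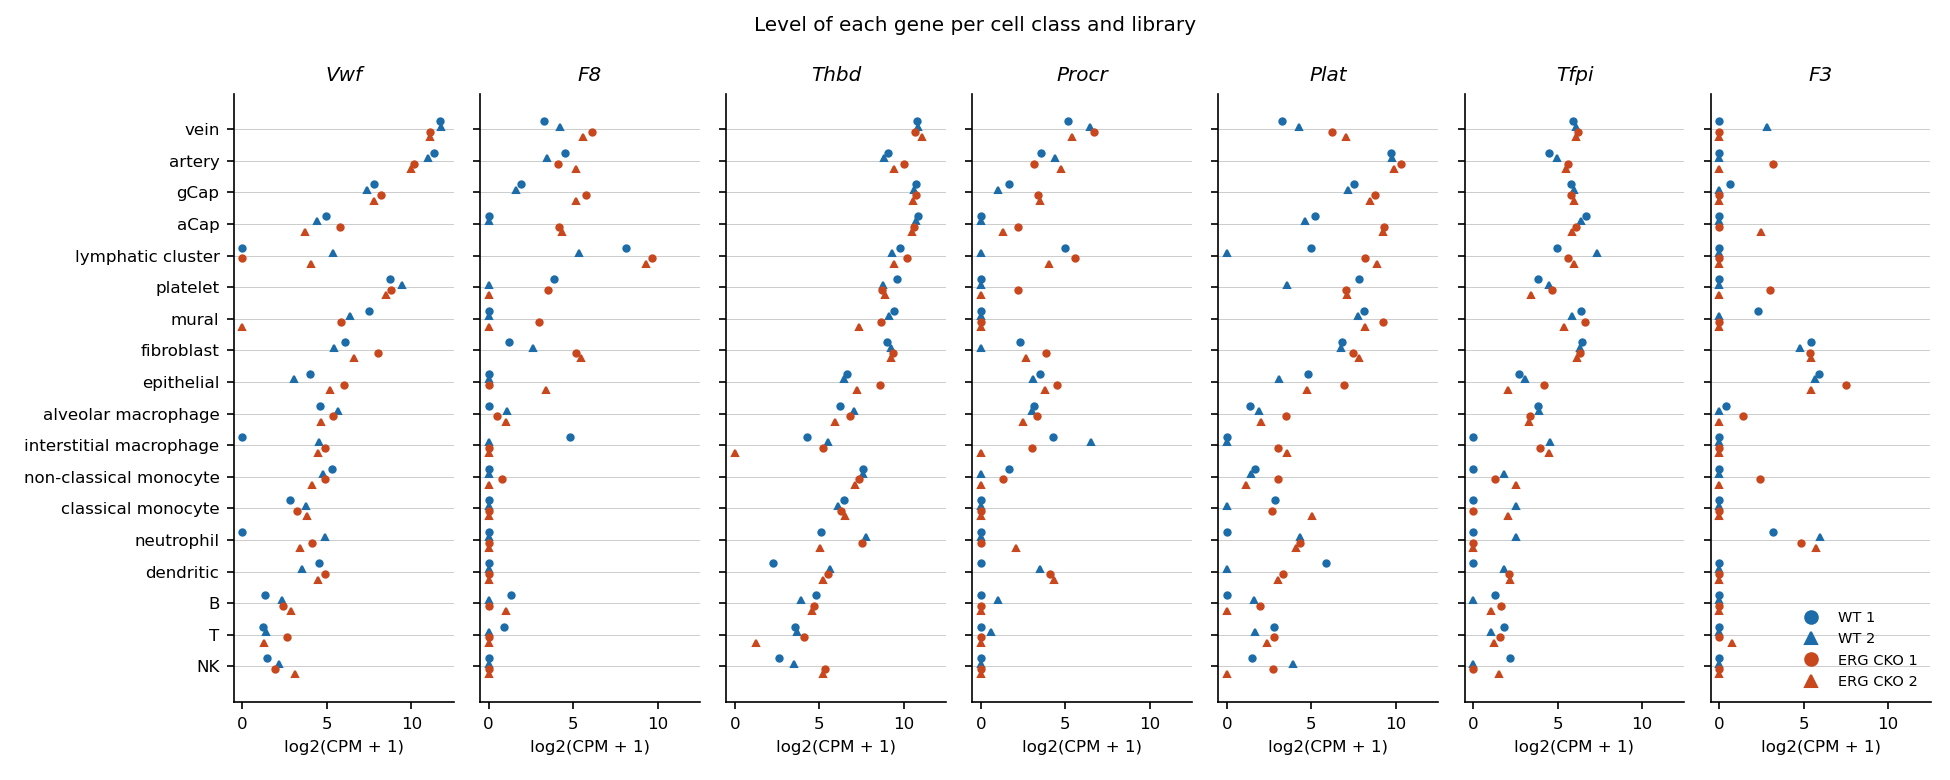
Level of each of the 7 genes (horizontal axis, log2(CPM + 1)) in 18 cell classes (rows), with 1 point per library. Vwf peaks in vein and artery, Plat in artery, F8 in the lymphatic cluster, Procr in vein and F3 in epithelium.

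ECs of the libraries labelled ERG CKO carried more F8 and more Plat than those of WT. F8 was at 6.27 and 3.67 CPM in WT and at 73.8 and 47.5 CPM in ERG CKO, a log2 fold change of 3.60 (SE 0.33, adjusted p = 0.00521). Plat was at 167 and 133 CPM in WT and at 430 and 434 CPM in ERG CKO, a log2 fold change of 1.49 (SE 0.15, adjusted p = 0.00672). For both genes the lower ERG CKO library lay far above the higher WT library. Overlap between the groups is described here and below without a test, and the share of all genes without overlap was not counted. Of the 6 members with enough UMIs to be tested in ECs, these 2 rose and none fell, beside 317 of 10781 genes called in either direction over the whole transcriptome (2.94%, and 1.71% higher). The median log2 fold change was 0.44 over the 6 members and 0.01 over all genes.

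The other 4 did not pass the test. Vwf was at 525, 546, 510 and 288 CPM over the libraries, with a log2 fold change of -0.46 (SE 0.25, adjusted p = 0.441), and the low value came from ERG CKO replicate 2. Without ERG CKO replicate 1 the log2 fold change of Vwf was -0.97 (adjusted p = 0.0121), and without replicate 2 of that group it was -0.09. Thbd was at 1654 and 1511 CPM against 1534 and 1405 CPM, a log2 fold change of -0.15 (SE 0.13, adjusted p = 0.671). Its groups overlapped, as did those of Tfpi, which lay between 57.2 and 65.4 CPM. Procr was at 5.22 and 10.4 CPM in WT and 21.7 and 9.71 CPM in ERG CKO (log2 fold change 1.01, SE 0.46, adjusted p = 0.337). Its value ranged from 0.22 to 1.59 with a mouse left out, and it was called in 1 of 16 alternatives. F3, with 1, 2, 4 and 3 UMIs in ECs, did not reach the filter on low counts.

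The F8 and Plat calls were each lost when a single WT library was left out, which leaves 1 WT sample that is assumed to vary like the other group. F8 had a log2 fold change of 3.24 and an adjusted p of 0.0639 without WT replicate 2, and Plat had 1.66 (adjusted p = 0.0510) without WT replicate 1 and 1.32 (adjusted p = 0.105) without WT replicate 2. Leaving out the ECs with platelet UMIs gave 3.64 for F8 (adjusted p = 0.00407) and 1.47 for Plat (adjusted p = 0.00772). Leaving out the lymphatic cluster, the richest in F8, gave 3.71 for F8 (adjusted p = 0.00765).

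**Figure D2:**
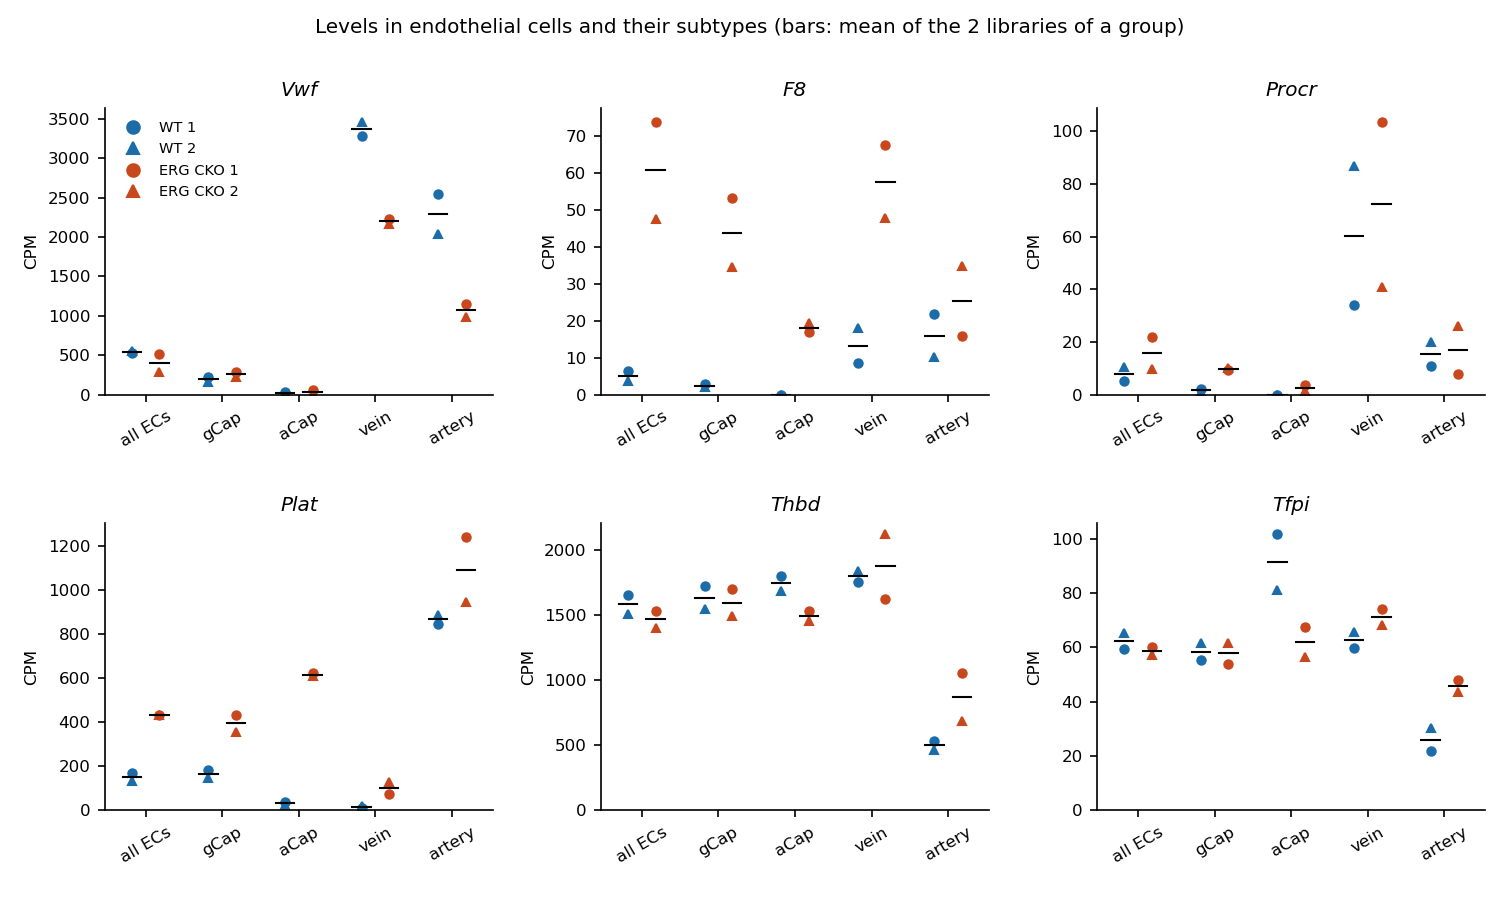
CPM of 6 members in all ECs and in 4 EC subtypes, with 1 point per library and a bar at the mean of the 2 libraries of a group. Plat in aCap and F8 in gCap separate the groups, whereas Thbd and Tfpi levels of the groups lie close in gCap.

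gCap, the most numerous ECs, were then compared on their own. Within this class the 7 gCap markers summed to 7882 and 7682 CPM in WT and to 5839 and 5700 CPM in ERG CKO, the 8 vein markers to 351 and 328 against 671 and 560 CPM, and the 8 aCap markers to 297 and 240 against 492 and 664 CPM. Platelet markers in gCap summed to 86.9 and 103 against 370 and 152 CPM. The 7 lymphatic markers summed there to 1168 and 980 against 1979 and 961 CPM. The 9 artery markers summed to 1981 and 1750 against 1243 and 1714 CPM. The part of these shifts in the results for gCap was not tested. F8 was at 2.73 and 2.03 CPM in WT and at 53.1 and 34.6 CPM in ERG CKO, from 5, 4, 126 and 51 UMIs. This is a log2 fold change of 4.17 (SE 0.39, adjusted p = 0.000468). Both WT libraries held only a few F8 UMIs. The F8 UMIs of gCap came from 79 of its 1673 cells, with up to 22 in 1 cell. Plat was at 183 and 144 CPM against 434 and 354 CPM, a log2 fold change of 1.24 (SE 0.18, adjusted p = 0.00515). Procr rose as well, from 2.19 and 1.02 CPM to 9.27 and 10.2 CPM (log2 fold change 2.53, SE 0.54, adjusted p = 0.0334), but it rested on 4 and 2 UMIs in WT against 22 and 15, and the call was lost without either WT library, with adjusted p-values of 0.126 and 0.349, and without ERG CKO replicate 1 (0.0550). Thus 3 of 6 tested members were higher and none lower in gCap, beside 2.70% of 9819 genes called and 1.84% called higher. F8 and Procr, however, reached the filter's minimum of 5.26 CPM in both ERG CKO libraries and in neither WT library, so they could be tested only because they were high in ERG CKO, and the count of 3 is no support beyond Plat.

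Vwf in gCap was at 221 and 161 CPM in WT and at 292 and 218 CPM in ERG CKO, with a log2 fold change of 0.39 (SE 0.20, adjusted p = 0.436). Its groups overlapped. Without ERG CKO replicate 2 it was called, at 0.61 (adjusted p = 0.00988). Thbd was at 1726, 1545, 1703 and 1491 CPM and Tfpi at 55.2, 61.4, 53.9 and 61.7 CPM, and neither passed the test (adjusted p = 0.916 and 0.941). The F8 and Plat calls in gCap were not obtained when the libraries were clustered without alignment, and the cause was not tested. F8 then had a log2 fold change of 1.51 (adjusted p = 0.566) and Plat 1.10 (adjusted p = 0.177) in gCap.

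In aCap the difference in Plat was much larger. WT cells of this class carried 35.9 and 23.4 CPM of Plat, from 12 and 13 UMIs. Those of the libraries labelled ERG CKO carried 622 and 608 CPM, from 516 and 410 UMIs. The log2 fold change was 4.39 (SE 0.25, adjusted p = 4.37e-08), or 20.9-fold. In WT, Plat in aCap lay below gCap, and in ERG CKO it lay above gCap. The test of this difference between the subtypes gave a log2 value of 3.11 (SE 0.26, adjusted p = 6.55e-09, edgeR interaction, aCap minus gCap), where 6.96% of 9584 genes were called, and it stayed between 2.98 and 3.28 when each mouse was left out in turn.

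The cells that make up the aCap class differed between groups in number and in the markers that name it. The class held 51 and 91 cells in WT and 158 and 151 in ERG CKO. These were 7.92% and 12.2% of the ECs of a library against 19.6% and 27.1%, while gCap made up 70.0% and 68.4% against 50.6% and 54.8%. The 8 aCap markers summed to 13590 and 13714 CPM in WT and to 4141 and 5936 CPM in ERG CKO, while the 7 gCap markers in the same cells were at 2018 and 1359 against 1428 and 1264 CPM. The 8 vein markers in aCap were higher in ERG CKO, at 62.8 and 79.3 against 248 and 224 CPM, and platelet markers were at 92.7 and 135 against 456 and 132 CPM, high in ERG CKO replicate 1. The part of these markers in the changes of Plat and F8 was not tested. The Plat comparison was also repeated in aCap cells with UMIs of at least 3 aCap markers, a restriction chosen after the data were seen. It kept 371 of 451 cells (49, 90, 119 and 113 over the libraries). It sets no level for the markers, so it cannot tell whether the groups hold the same kind of cell. Plat was then at 36.0 and 23.5 CPM in WT and at 657 and 633 CPM in ERG CKO, and the log2 fold change was 4.47 (adjusted p = 3.28e-09).

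The share of aCap cells with a Plat UMI moved in the same way. In WT 11.8% and 8.79% of them held one, against 79.7% and 70.2% in ERG CKO, and cells had a median of 6832, 6130, 5094 and 4424 UMIs over the libraries. Once cells were thinned to 1000 UMIs each, with shallower cells left out (48, 87, 157 and 141 cells kept), the shares were 4.17% and 3.45% against 38.2% and 41.8%. The Wilson 95% intervals reached at most 14.0% in WT and began at 31.0% in ERG CKO, and they cover counting error only. T cells, which should lack Plat, had shares of 0% to 0.270% after thinning, and 1.45% to 2.17% before it at median depths of 5869 to 6372 UMIs. With 2 mice per group the exact two-sided permutation test cannot go below p = 0.33, which is the value obtained here.

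F8 was not detected in WT aCap, with 0 UMIs in either library, and was at 16.9 and 19.3 CPM in ERG CKO, from 14 and 13 UMIs. Set against the floor of 3 UMIs over the WT group (3.37 CPM), this is at least 5.32-fold higher. The adjusted p was 0.00448 (0.0821 without WT replicate 2), but F8 reached the filter's minimum of 16.3 CPM through the ERG CKO libraries alone, so the gene could enter the test only by being high there. In the aCap cells with at least 3 aCap markers F8 had 6 and 2 UMIs in ERG CKO, none in WT, and was too low to test. Vwf, Thbd and Tfpi did not pass in aCap. Thbd was at 1800 and 1689 CPM against 1535 and 1456 CPM (adjusted p = 0.387), and Tfpi was at 102 and 81.1 CPM against 67.5 and 56.4 CPM (adjusted p = 0.183), both without overlap between the groups. In all, 2 of 5 tested members were higher in aCap, F8 with this limit, where 11.5% of 7349 genes were called and 5.51% called higher.

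**Figure D3:**
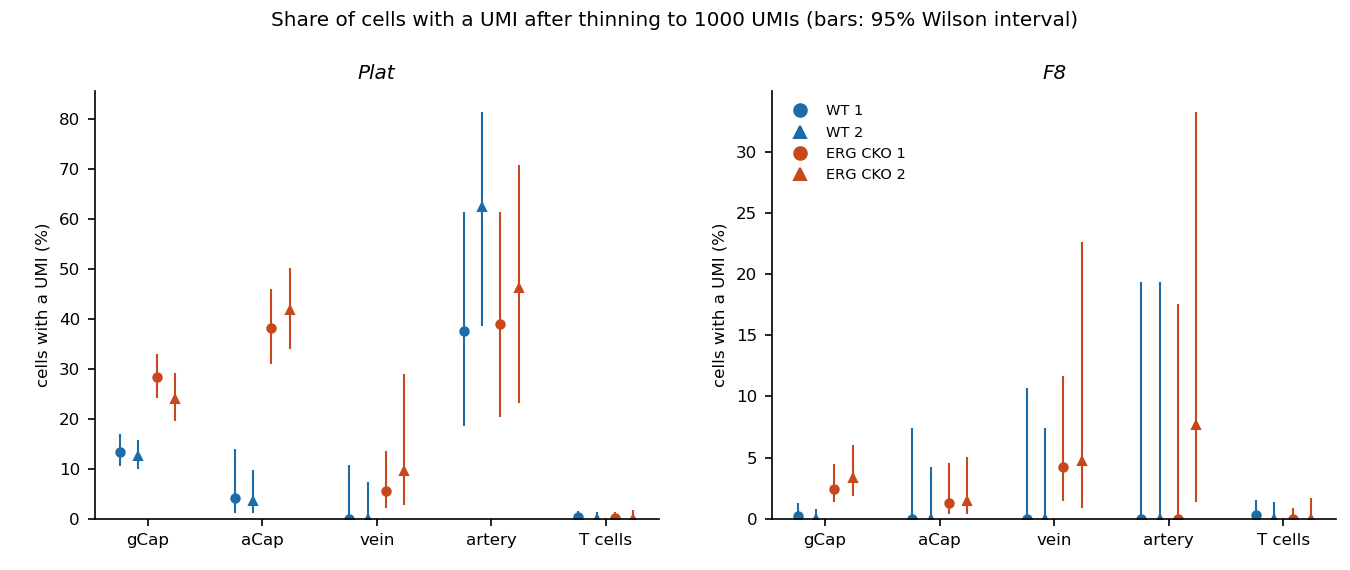
Percent of cells with a Plat UMI (left) or an F8 UMI (right) in 4 EC subtypes and in T cells, after thinning each cell to 1000 UMIs, with 1 point per library and the 95% Wilson interval. For Plat in aCap the WT points lie at 4.17% and 3.45% and the ERG CKO points at 38.2% and 41.8%.

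In veins no member passed the test, and 0.166% of 4816 genes did. Within vein the 8 vein markers summed to 6756 and 7973 CPM in WT and to 6493 and 5375 CPM in ERG CKO. Platelet markers there summed to 42.6 and 272 against 397 and 238 CPM, and the part of these shifts was not tested. Plat in vein was at 8.52 and 17.9 CPM in WT and at 72.4 and 129 CPM in ERG CKO on 2, 6, 44 and 19 UMIs (log2 fold change 2.58, SE 0.52, adjusted p = 0.0822). It was called whenever any 1 of the 4 libraries was left out, with adjusted p-values of 0.00162 to 0.0249. F8 was at 8.52 and 17.9 against 67.5 and 47.6 CPM (log2 fold change 2.06, SE 0.53, adjusted p = 0.154). The F8 value ranged from 1.62 to 2.75 with a mouse left out, and F8 was called in 2 of 12 alternatives. Both genes reached the filter's minimum in both ERG CKO libraries of vein and in neither WT library. Their lack of overlap between the groups follows from that and is no further result. The log2 fold change of Vwf in vein was -0.69 (SE 0.23, adjusted p = 0.309), with the levels given above not overlapping, and it was called without ERG CKO replicate 1 (-0.77, adjusted p = 0.00223) or replicate 2 (-0.63, adjusted p = 0.00821). Procr, the gene typical of vein, overlapped between groups (adjusted p = 0.911), as did Thbd. Tfpi in vein was at 59.6 and 65.7 against 74.1 and 68.0 CPM, without overlap, and did not pass (log2 fold change 0.13, adjusted p = 0.965).

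The fitted change of Vwf was negative in vein and positive in gCap, neither called, and the difference itself was tested. The log2 fold change in vein lay below that in gCap by 1.13 (SE 0.19, adjusted p = 3.32e-06, edgeR interaction), where 1.18% of 9326 genes were called, and -1.13 was the only called value among the 6 tested members. It did not pass without WT replicate 2 (-0.85, adjusted p = 0.385). In the fit for arteries, where libraries held 13 to 19 cells, Vwf had a log2 fold change of -1.06 (SE 0.24, adjusted p = 0.361) and both ERG CKO values lay below both WT values. It was called without ERG CKO replicate 1 (-1.17, adjusted p = 0.00369) or replicate 2 (-0.997, adjusted p = 0.0362). None of 2033 genes was called there by edgeR or by DESeq2, with 153 at an unadjusted p under 0.05 in edgeR. Plat in artery did not overlap between groups, but the log2 fold change, 0.37 with an SE of 0.26, did not pass (adjusted p = 0.835, edgeR). Thbd in artery, with the levels given above, had a log2 fold change of 0.83 (SE 0.31, adjusted p = 0.586) without overlap. Within artery the 9 artery markers summed to 15920 and 11029 CPM in WT and to 7849 and 12603 CPM in ERG CKO. Platelet markers in artery summed to 21.7 and 231 against 271 and 955 CPM, and the part of these shifts was not tested. The lymphatic cluster had 9 cells in each WT library and was not tested.

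**Figure D4:**
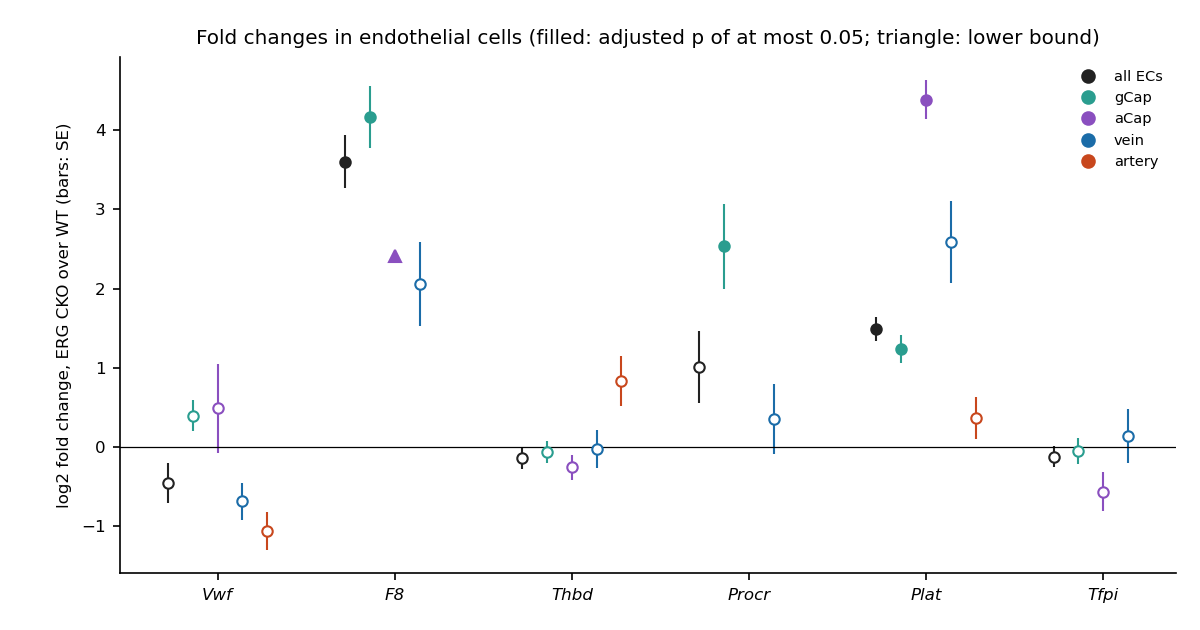
Log2 fold change, ERG CKO over WT, of 6 members in all ECs and in 4 subtypes, with bars for the SE and filled points for an adjusted p of at most 0.05. The triangle is the lower bound for F8 in aCap, which had 0 UMIs in WT. Plat in aCap (4.39) lies far above Plat in gCap (1.24), and Vwf is above 0 in gCap and below 0 in vein and artery.

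Platelets store von Willebrand factor. In the 300 barcodes of the platelet class Vwf was at 427 and 695 CPM in WT and at 434 and 353 CPM in ERG CKO (log2 fold change -0.34, SE 0.45, adjusted p = 0.999), with overlapping groups. Many of these barcodes also held EC transcripts. Between 47.8% and 60.2% of them per library had a UMI of Cdh5, Cldn5, Egfl7 or Ramp2, and the 10 EC markers summed to 5281 to 11014 CPM. In the 129 platelet barcodes without such a UMI, Vwf remained at 690, 1016, 408 and 644 CPM. F8 and Procr had 0 UMIs in these barcodes, Plat and Tfpi 2 each and F3 1, and Thbd had 1, 1, 9 and 0 over the libraries. None of the 3 tested members passed in platelets, where 0.629% of 1431 genes were called.

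Outside ECs and platelets, 1 member was called in 1 class. F8 in fibroblasts was at 1.32 and 5.2 CPM in WT and 34.7 and 42.8 CPM in ERG CKO, from 1, 2, 33 and 8 UMIs (log2 fold change 3.69, SE 0.64, adjusted p = 0.0218), beside 0.656% of 7626 genes called and 0.511% called higher. In this class too F8 passed the filter on low counts through the ERG CKO libraries alone. It was not called without WT replicate 1 (2.79, adjusted p = 0.257). Between 54.2% and 64.0% of the fibroblast barcodes per library held a UMI of Cdh5, Cldn5, Egfl7 or Ramp2, and platelet markers in them summed to 102 and 85.8 CPM in WT and to 886 and 1178 CPM in ERG CKO. In the 170 fibroblasts without such an EC UMI, F8 had 0 and 2 UMIs in WT and 0 and 0 UMIs in ERG CKO. Vwf in the same 170 cells had 1, 3, 2 and 1 UMIs, whereas F3 (15, 2, 22 and 4 UMIs) and Tfpi (14, 11, 24 and 2 UMIs) were kept.

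F3 in epithelium was at 58.0 and 49.5 CPM in WT and 178 and 41.9 CPM in ERG CKO, and the high value came from 1 library (log2 fold change 0.73, SE 0.50, adjusted p = 0.769). Fibroblast F3 (log2 fold change 0.18, adjusted p = 0.965) and neutrophil F3 (0.02) did not pass either. In the classes tested beside ECs, their subtypes, platelets and fibroblasts, no member was called. All genes called made up 0.292% in B cells, 0.0962% in NK cells, 0.0707% in T cells, 0.0245% in classical monocytes, 0.315% in dendritic cells and 0.0794% in mural cells. For alveolar macrophages, epithelium, neutrophils and non-classical monocytes edgeR called no gene at all, where 443, 608, 141 and 355 genes were under an unadjusted p of 0.05 and DESeq2 called 1, 13, 0 and 0.

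The wider haemostasis list was read in ECs to place the members among their pathway. Of the 60 genes of the list read here 54 were in the matrix and 34 could be tested, and 3 rose and none fell: F8, Plat and F2rl3. Over all genes tested in ECs 2.94% were called and 1.71% were higher. The median log2 fold change was 0.51 over these 34 genes. F2rl3, a thrombin receptor, was near the detection limit, with 1 and 1 UMIs in WT and 26 and 11 in ERG CKO (adjusted p = 0.0352). It passed the filter through the ERG CKO libraries alone, and its call was lost without WT replicate 1 (adjusted p = 0.288) or WT replicate 2 (0.328).

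By role, the fibrinolysis group had 1 of 6 tested genes called, thrombin and its receptors 1 of 2 and the von Willebrand axis 1 of 5, groups too small to set against the 2.94% of all genes. None of the 4 tested genes of the protein C pathway, 3 of the tissue factor pathway, 2 serpins, 3 endothelial inhibitors of platelets and 9 platelet genes was called, and the other plasma factors were too low to test. Well expressed genes of the list that did not pass were Anxa2 (log2 fold change 0.27) and S100a10 (0.44), which together bind Plat at the cell surface, Plaur (-0.48), the urokinase receptor, Entpd1 (-0.49), which degrades the platelet agonist ADP, and Pros1 (0.36), the cofactor of protein C. The same held for Lman1 (-0.17) and Mcfd2 (0.20), which carry factor VIII out of the endoplasmic reticulum, and for Mmrn2 (0.15) and Plgrkt (-0.09). The 9 platelet genes had a median log2 fold change of 1.23 in ECs, and Pf4 among them was at 34.1, 83.4, 151 and 77.3 CPM, highest in the library with most platelet UMIs in its ECs.

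**Figure D5:**
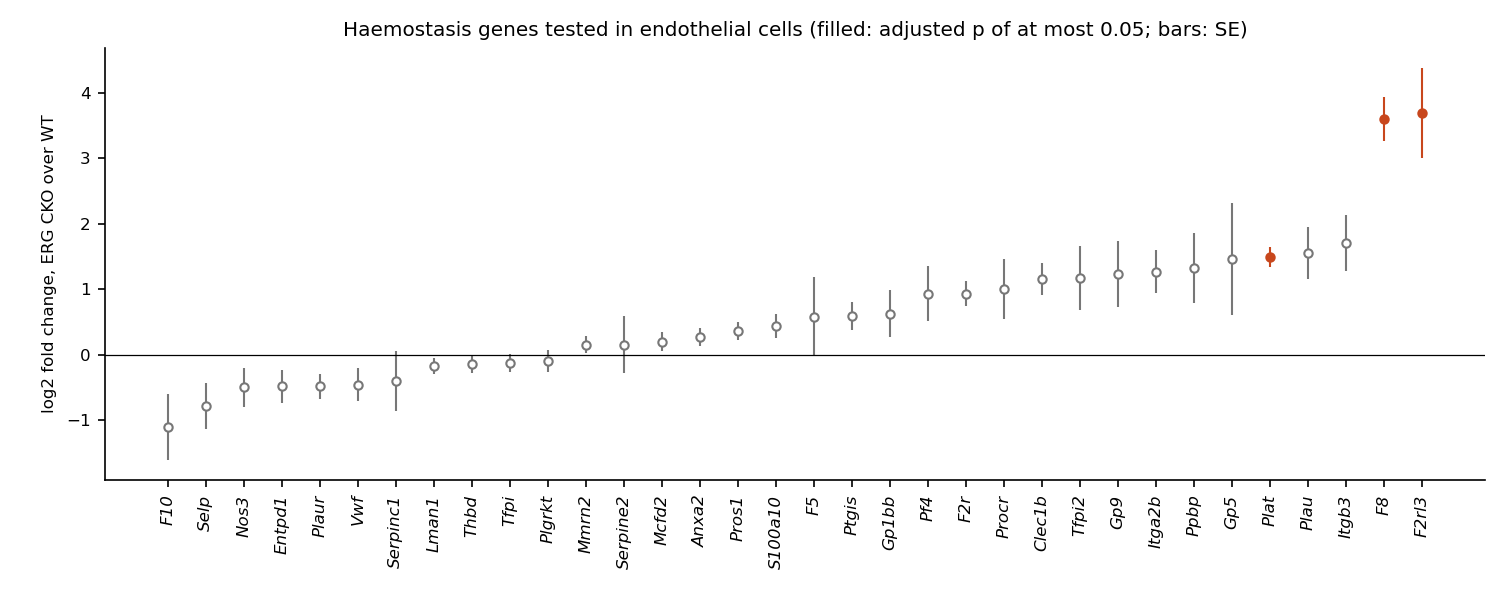
Log2 fold change, ERG CKO over WT, in all ECs for the 34 tested genes of the haemostasis list, ordered by size, with bars for the SE. The 3 filled points are the called genes F8, Plat and F2rl3, and all lie above 0.

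Besides the members, the list genes with the largest called changes in aCap were Mmrn2, an EC matrix glycoprotein, at 8.97 and 5.41 against 146 and 74.1 CPM (log2 fold change 3.96), Ptgis, which makes prostacyclin, at 14.9 and 1.80 against 92.8 and 50.4 CPM (3.34, or 5.13 without WT replicate 1 and 2.24 without WT replicate 2), and the platelet gene Clec1b (1.32). The Clec1b call was lost without WT replicate 1, WT replicate 2 or ERG CKO replicate 1 (adjusted p = 0.0653, 0.172 and 0.106, edgeR). In gCap, where 2 such genes were called, they were Itgb3 (3.19), an integrin chain of platelets and ECs, and the platelet gene Pf4 (1.60). Mmrn2 and Ptgis in aCap, Itgb3 in gCap and Clec1b in fibroblasts, given next, passed the filter through the ERG CKO libraries alone. Without WT replicate 1 or 2 the calls were lost for Itgb3 (adjusted p = 0.0691 and 0.0591) and for Pf4 (0.0638 and 0.0682), and without ERG CKO replicate 1 the log2 fold change of Pf4 was 0.81 (adjusted p = 0.0441, edgeR). The called list genes in other classes were platelet genes, led by Pf4 (3.60), Ppbp (3.35) and Clec1b (3.16) in fibroblasts, and Pf4 in dendritic cells (3.31), and the platelet markers as a group summed to 82.3 and 136 against 517 and 1287 CPM in dendritic cells.

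Genes with a pattern most like each member were sought across 16 classes and 4 libraries (64 points that share their libraries), by Pearson correlation of log2(CPM + 10). Vwf was closest to Jam2 (0.92), Myrip (0.92) and Pkn3 (0.90), and Thbd to Bmpr2 (0.97), Klhl5 (0.96) and Ehd4 (0.94). Plat was closest to Abi3bp (0.87), Efnb2 (0.87) and Golim4 (0.86). Tfpi was closest to Slc16a9 (0.93), Ghr (0.93) and Tmem204 (0.93). The sparser members had looser neighbours, with F8 closest to Fam198b (0.85), Clca3a1 (0.80) and Armcx4 (0.78), Procr to Car8 (0.80), Ch25h (0.79) and Samd5 (0.78), and F3 to Igfbp6 (0.83), Ces1d (0.80) and Chil1 (0.79). Car8 and Efnb2 were markers used to name vein and artery.

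The members lie apart in the mouse genome (GRCm38, annotation GENCODE vM21). Vwf is at chr6:125546774-125686679, F8 at chrX:75172715-75382615, Thbd at chr2:148404466-148408188, Procr at chr2:155751117-155755471, Plat at chr8:22757727-22782844, Tfpi at chr2:84432855-84476775 and F3 at chr3:121723537-121735048, and all are annotated as protein-coding. ERG belongs to the ETS family, whose members bind DNA at a GGAA core. RefSeq promoter windows (GRCm38.p6, 250 bases before to 50 bases after a start) were matched for 4 members, F8, Procr, Tfpi with 2 starts, and F3. Those of Vwf, Thbd and Plat were not analysed here. F8 and Procr, which rose in gCap, are shown beside Tfpi, which was not called there, and F3, which was too low to test there. Each stretch holds the GGAA nearest before the RefSeq start, in capitals (TTCC where it lies on the other strand). It is given on the strand of the gene, which is the minus strand for F8 and Tfpi. The RefSeq starts of F8 and Procr and the downstream start of Tfpi lie inside the GENCODE spans above, and so do their stretches.

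F8, chrX:75380054-75380081: gaagcttttacaTTCCatgcagactcca
Procr, chr2:155751121-155751148: tcctcaagcctcGGAAgcaagcagcggg
Tfpi, upstream start, chr2:84476787-84476814: aatggaagtcatTTCCgcccctataagg
Tfpi, downstream start, chr2:84474175-84474196: tgacacaaaagcTTCCagggga
F3, chr3:121723418-121723445: gggtctcggagtTTCCtacaggagggga

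GGAA, searched on both strands, had 5 matches in the F8 window, 4 in that of Procr, 6 and 4 in those of Tfpi and 1 in that of F3, and 96.0% of 32851 promoter windows of this length hold at least 1. The longer AGGAAG, every match of which also holds a GGAA, was found 1 and 2 times in the Tfpi windows and in none of the F8, Procr and F3 windows, against 35.4% of all windows. A match is a run of letters only and does not mark a bound site.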

How the data were processed

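Per the labels and the study's methods, lungs were dissociated whole, cells were captured on a 10x platform and libraries sequenced on a NextSeq 500. The submitters' processing notes name Cell Ranger 3.1.0 and mm10. The authors deposited raw UMI counts per gene and cell for 9363 cells in 4 libraries. The study grouped cells in the BioTuring browser, so the cell names here were rebuilt and may differ. The study also describes intermediate ECs in ERG CKO lungs, a class not among the names used here.

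Cells held at least 500 UMIs and 300 genes and up to 49.2% mitochondrial UMIs, and none was left out. Scanpy 1.11.5 called 60 doublets (0.641%), which were kept. Seurat 5.3.0 aligned and clustered the libraries (resolution 0.8, ECs 0.6, with the 317 genes called in ECs left out of the second step) and clusters were named from at least 3 markers. The pseudocount of 100 CPM for leading genes of EC clusters and the rule that leaves clusters with markers of 2 classes unnamed were chosen after the data were seen, and 1231 cells stayed unnamed. Counts were summed per class and mouse where each library had at least 10 cells and tested with edgeR 4.0.16 (TMM, filterByExpr, quasi-likelihood, R 4.3.3), with Benjamini-Hochberg adjustment over all genes tested and calls at an adjusted p of at most 0.05. The tests in ECs and of gCap against aCap were tested on simulated data, with a spread between replicates that was set and not taken from these data. In ECs 70.1% of 2-fold and 98.9% of 4-fold changes were recovered. For gCap against aCap 6.25% and 63.6% were, so a 2-fold difference between these subtypes would mostly be missed. The labels give separate mice, and replicates differed by more than sampling noise (chi-square per degree of freedom 15.9 and 17.4). Intervals are Wilson intervals at 95%, and the floor for 0 UMIs is 3 counts.

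The members, lists and tests were chosen with earlier results of these data known. Named were the 7 members, called list genes in ECs, list genes of at least 50 CPM in ECs, the 3 largest called changes per class and the 3 genes most like each member, and 1 gene of the list is not reported here and is left out of its counts. Alternatives were RLE normalization, no filter, DESeq2 1.42.0, a replicate block, each library left out, doublets out, at most 10% mitochondrial UMIs, thinning to 1000 UMIs, other resolutions and no alignment.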

Additional observations from a re-analysis of the deposited data

Results flagged for a closer look

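Several differences between EC subtypes in the effect of the ERG CKO label passed the interaction test in edgeR, and all are given as values without explanation. Between aCap and gCap the log2 fold changes differed by 3.11 for Plat, 3.67 for Mmrn2 and 2.45 for Ptgis, each higher in aCap. Mmrn2 in gCap was at 121 and 149 CPM in WT and 169 and 176 CPM in ERG CKO, whereas in aCap it was at 8.97 and 5.41 against 146 and 74.1 CPM. The values for Pf4 (-1.33) and Plaur (-0.77) were lower in aCap than in gCap. Plaur in aCap was at 478 and 606 CPM in WT and at 299 and 261 CPM in ERG CKO.

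Between vein and gCap the differences were -1.13 for Vwf, -3.02 for Selp, which encodes P-selectin and is stored with von Willebrand factor in ECs, -1.21 for Ptgis and -1.52 for Pf4. Selp in vein was at 315 and 260 CPM in WT and at 148 and 68.0 CPM in ERG CKO, while gCap had 4, 0, 6 and 8 Selp UMIs. Pf4 is a platelet gene, and vein of WT replicate 1 had 1 Pf4 UMI against 43 in WT replicate 2.

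F8 was also found in an unnamed cluster of low depth, which entered no comparison other than the alternative that adds it to ECs. There it had 0 UMIs in both WT libraries and 14 and 5 UMIs in the libraries labelled ERG CKO, a mean of 31.1 CPM there. Against the floor of 3 UMIs over the WT group (9.50 CPM) this is at least 3.28-fold higher.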

How the results depend on the processing

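Of 257 alternative values of the called log2 fold changes, 223 kept their direction and call, 34 kept only their direction and none reversed. Over all named genes, called or not, 39 alternatives gave no value because the gene did not pass the filter there, and these are not counted. The causes were not tested except where fewer samples or cells entered. With each mouse left out in turn, the log2 fold change ranged from 3.19 to 4.02 for F8 and from 1.32 to 1.66 for Plat in ECs, from 2.07 to 3.14 for Procr in gCap, from -1.40 to -0.85 for the Vwf difference of vein and gCap and from 3.60 to 3.89 for F2rl3 in ECs, and the fitted F8 value in aCap (no bound) from 6.47 to 6.62. Calls in gCap were lost without alignment for F8 (1.51) and Plat (1.10), and for Procr with DESeq2 (2.57), without ECs holding platelet UMIs (2.32) and at EC resolution 0.3 (2.55). F2rl3 was lost with DESeq2 (3.81), without the lymphatic cluster (3.51), with the low-depth cluster added (3.66) and without WT replicate 1 or 2. Among other list genes, calls were kept in 9 of 15 alternatives for Clec1b in aCap (lost with DESeq2, at EC resolution 1.0, without alignment and in 3 of those that leave out a mouse), in 9 of 15 for Pf4 in gCap and in 10 of 13 for Itgb3 in gCap.

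Called members in ECs were 2, 4 without the filter and 0 to 3 with a mouse left out. In EC subtypes they were 5, 3 after thinning, without ECs holding platelet UMIs or at EC resolution 1.0, 2 without alignment and 4 to 9 with a mouse left out. In other classes there was 1, against 2 with RLE or doublets out, 6 without the filter, 0 with DESeq2 or thinning and 1 to 4 with a mouse left out. The list had 3 called genes in ECs, 20 without the filter, 8 at resolution 0.4, 5 at resolution 1.2, 9 without alignment and 0 to 11 with a mouse left out, and subtype differences had 2, against 1 to 3. Unthinned shares differed by 64.7 percentage points (36.2 thinned) for Plat in aCap, 10.2 (3.67) for F8 and 27.4 (16.3) for Plat in ECs.

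The labels number mice 1 and 2 in each group without saying that they pair, and same-numbered libraries deviated together with r = 0.30 over genes. With a replicate block the list had 20 called genes in ECs, other classes had 2 called members, and Vwf was called in ECs (-0.52) and gCap (0.39) and Plat in vein (2.81).

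Reversals touched only changes that were not called in the reported fit. In gCap Thbd ranged from -0.19 to 0.052 with a mouse left out and was 0.069 thinned, 0.0094 at EC resolution 1.0, 0.23 without alignment and 0.077 without EC clusters 0 and 1, and Tfpi ranged from -0.12 to 0.020 and was 0.19 at EC resolution 1.0 and 0.40 without those clusters. In vein Thbd ranged from -0.18 to 0.11 and was 0.15 thinned, 0.031 without ECs holding platelet UMIs and 0.046 without alignment, Procr ranged from -0.77 to 1.24, and Tfpi from -0.023 to 0.22 and was -0.27 without ECs holding platelet UMIs. Vwf in aCap ranged from -1.04 to 1.15, called at the latter (without ERG CKO replicate 2), and was -0.33 without alignment, and its difference from gCap ranged from -1.23 to 0.50. In platelets Vwf ranged from -0.71 to 0.17, Thbd from -0.49 to 0.15 (0.94 thinned) and Plat from -0.50 to 3.65. In ECs thinning gave 0.026 for Tfpi and -0.0071 for Mmrn2, and with a mouse left out Plgrkt ranged from -0.30 to 0.15 and Erg from -0.16 to 0.24.

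The depth limits genes with few UMIs, such as F3 (10 UMIs in ECs, not tested), Procr and F2rl3, and small classes such as artery. The smallest detectable change was not tested for them.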
